A study of Drosophila melanogaster with 3 samples.

Results

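The genes described here encode subunits of the 26S proteasome of *Drosophila melanogaster*, and the question was how often the homeodomain protein OdsH (Odysseus) was found beside their transcription start sites (TSSs). They were taken as the protein-coding genes whose symbol begins with Prosalpha, Prosbeta, Rpt or Rpn followed by a digit, which gave 48 of the 13945 protein-coding genes on the 6 chromosome arms used. Of these, 32 are the ubiquitous subunits and 16 are paralogs whose symbol carries a T or R suffix. The rule itself used no measured value, although it was set with earlier results of these data known.

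Chromatin immunoprecipitation with sequencing (ChIP-seq) had been carried out on whole white prepupae, the stage at the onset of metamorphosis, of mixed sex and unstated age. The transgenic line stably carried OdsH with GFP at its C terminus, an antibody to GFP precipitated the fusion protein, and chromatin was broken by sonication. The data form 1 group of 3 biological replicates, each a separate biosample of the same line, with no second genotype, stage or treatment. The labels do not state what drives the transgene, how its level compares with the native protein or which cells made it, and whole animals do not show the tissue a peak came from.

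The 26S proteasome is the protease that degrades proteins tagged with ubiquitin in every cell. Its 20S core is a barrel of alpha and beta rings, with the proteolytic sites on the inner face of the beta rings, and its 19S cap consists of a base, whose Rpt ATPases unfold substrates, and a lid, whose Rpn subunits include the enzyme that removes ubiquitin. In *Drosophila* several subunits have a second gene expressed mainly in the male germ line, and OdsH itself is best known for hybrid male sterility and a role in the testis.

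An OdsH summit is the position of highest signal in a deposited peak. A gene was counted when a summit of the optimal set that passed the irreproducible discovery rate (IDR) procedure was at most 1000 bp from 1 of its TSSs. The authors' signal value ranks peaks within 1 list and is not comparable between lists. By this rule 6 subunit genes had a summit, *Prosalpha4*, *Prosbeta1*, *Rpn5*, *Rpn11*, *Rpn12* and *Rpn13*, which is 12.5% of the 48. Among all protein-coding genes the share was 23.0%. All 6 were ubiquitous subunits, so the share was 18.8% of the 32 ubiquitous genes and 0 of the 16 paralogs. The share of the other protein-coding genes was 3203 of 13897, also 23.0%. Whether the ubiquitous subunits were below or above it depended on the window. Their share was 15.6% against 14.1% of other genes within 250 bp, 18.8% against 19.0% within 500 bp, 18.8% against 23.0% within 1000 bp and 25.0% against 29.2% within 2000 bp.

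The sequences under 4 of the 6 summits are shown first, since they are the stretches where the protein was placed. Each window covers 101 bp centred on the summit, read 5′ to 3′ on the strand of the subunit gene from the RefSeq genome sequence of Release 6 (dm6). Capitals mark matches to 1 of 5 searched words, which are named with the word counts further on. The windows are X:16275916-16276016 (plus strand) for *Prosalpha4*, 3R:5789223-5789323 (plus strand) for *Rpn5*, 2L:5059959-5060059 (minus strand) for *Rpn11* and 3L:16582773-16582873 (plus strand) for *Rpn12*.
Prosalpha4: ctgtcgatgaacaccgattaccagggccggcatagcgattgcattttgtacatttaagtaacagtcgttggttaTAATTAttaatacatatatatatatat
Rpn5: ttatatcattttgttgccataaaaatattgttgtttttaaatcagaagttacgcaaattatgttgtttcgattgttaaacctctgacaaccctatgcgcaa
Rpn11: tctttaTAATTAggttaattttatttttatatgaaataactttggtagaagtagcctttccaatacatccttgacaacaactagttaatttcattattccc
Rpn12: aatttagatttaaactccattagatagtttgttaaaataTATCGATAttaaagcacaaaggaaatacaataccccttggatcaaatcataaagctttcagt
All 4 windows are rich in A and T, with a GC content of 33.7% for *Prosalpha4*, 29.7% for *Rpn5*, 25.7% for *Rpn11* and 26.7% for *Rpn12*. The windows not shown had 39.6% for *Prosbeta1* and 26.7% for *Rpn13*. Over all IDR summits within 1000 bp of a protein-coding TSS the median was 31.7%, so low GC is not particular to these peaks. The word TAATTA, the core recognised by many homeodomain proteins, was found in the windows of *Prosalpha4* and *Rpn11*. The palindrome TATCGATA, the DNA replication-related element, was found in that of *Rpn12*, and none of the searched words in that of *Rpn5*, the strongest of these peaks.

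The other promoter that the results turn on is that of *Rpn3*, a lid subunit gene with strong rows in 2 replicate lists and no row in the pooled list. It is shown from 250 bp before to 50 bp after the TSS (2L:19051540-19051839, plus strand), with both copies of a direct repeat in capitals.
Rpn3: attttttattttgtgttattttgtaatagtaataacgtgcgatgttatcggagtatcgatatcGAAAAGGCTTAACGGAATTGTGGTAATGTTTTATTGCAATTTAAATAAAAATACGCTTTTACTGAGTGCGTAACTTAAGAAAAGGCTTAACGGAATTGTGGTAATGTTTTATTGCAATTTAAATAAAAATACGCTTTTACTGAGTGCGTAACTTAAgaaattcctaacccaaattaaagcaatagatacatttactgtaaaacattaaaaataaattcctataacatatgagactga
The repeated unit was 78 bp long, its copies started 187 and 109 bp upstream of the TSS, and the second copy ended 32 bp upstream. A direct repeat at least as long was found in 5 of the 13945 promoters (0.0359%), and the longest repeats in the other 47 proteasome promoters were 7 to 16 bp.

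The strongest peak of the family was at *Rpn5*, a structural subunit of the lid (3R:5789493-5791569, plus strand). Its peak (3R:5789002-5789472) had a signal value of 517 and ranked 686 of 8700, with the summit 220 bp upstream of the TSS. In the replicates' own lists the signal value was 133 at rank 731 in replicate 1, 188 at rank 943 in replicate 2 and 192 at rank 479 in replicate 3. All 3 replicates thus placed *Rpn5* near the top of their lists. The gene shares its upstream region with *Hat1*, which encodes a histone acetyltransferase and is transcribed the opposite way from a TSS 109 bp away. The summit lay in an intron of *Hat1* and only 111 bp from that gene's TSS, so it was nearer to *Hat1* than to *Rpn5*.

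A second lid gene, *Rpn11* (2L:5058404-5059790, minus strand), encodes the metalloprotease that cuts ubiquitin chains from substrates before they enter the core. Its peak (2L:5059801-5060216) had a signal value of 149, rank 4459 and a summit 219 bp upstream, and no other protein-coding gene had a closer TSS. The signal value was 45.9 (rank 4049) in replicate 1 and 59.3 (rank 5215) in replicate 2, and replicate 3 had no row within 1000 bp. Only 2 of the 3 replicates therefore showed this peak, although it passed the IDR threshold.

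The third lid gene was *Rpn12* (3L:16583028-16584022, plus strand), a scaffold subunit that joins the lid last during assembly in yeast. Its peak (3L:16582615-16583030) was close to the weak end of the IDR set, with a signal value of 103 at rank 6682 and a summit 205 bp upstream of its own TSS, the nearest one. The signal value was 36.8 (rank 5359), 36.1 (rank 9020) and 34.7 (rank 6120) in replicates 1, 2 and 3. The replicate 2 row fell just past the 8700 strongest rows, the cut used for replicate support, so 2 replicates supported the peak by that rule and all 3 had a row.

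In the core particle, the peak with the widest replicate support was at *Prosalpha4*, an alpha ring subunit (X:16276270-16277587, plus strand). The peak (X:16275758-16276173) had a signal value of 103, rank 6660 and a summit 304 bp upstream. The signal value was 25.3 (rank 8256), 42.3 (rank 7655) and 32.9 (rank 6460) in replicates 1, 2 and 3, so all 3 supported it, each in the lower part of its list. Its summit lay in an intron of *kat80*, which encodes a regulatory subunit of the microtubule-severing enzyme katanin, 49 bp from the nearest *kat80* TSS. A different *kat80* TSS is the one closest to *Prosalpha4*, 90 bp away, and transcription from it runs in the opposite direction.

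The remaining pair of genes lies on arm 2R. *Rpn13*, a ubiquitin receptor of the 19S base (2R:13958545-13960404, minus strand), had a peak of signal value 174 at rank 3733 with its summit 68 bp upstream, and its own TSS was the nearest. The signal value was 42.0 (rank 4567), 63.3 (rank 4820) and 59.4 (rank 3356) in replicates 1, 2 and 3, and all 3 supported it. *Prosbeta1*, the core subunit with caspase-like activity (2R:16013805-16014787, minus strand), had the least replicated of the 6 peaks. Its signal value was 103 (rank 6678), with a summit 71 bp upstream of *Prosbeta1* and 50 bp from the TSS of *Rrp42*, an exosome subunit gene transcribed in the opposite direction from 121 bp away. Replicate 1 had a row of signal value 16.5 at rank 12866, replicate 2 one of 39.9 at rank 8116, and replicate 3 none, so 1 replicate supported it among its strongest rows.

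**Figure D1:**
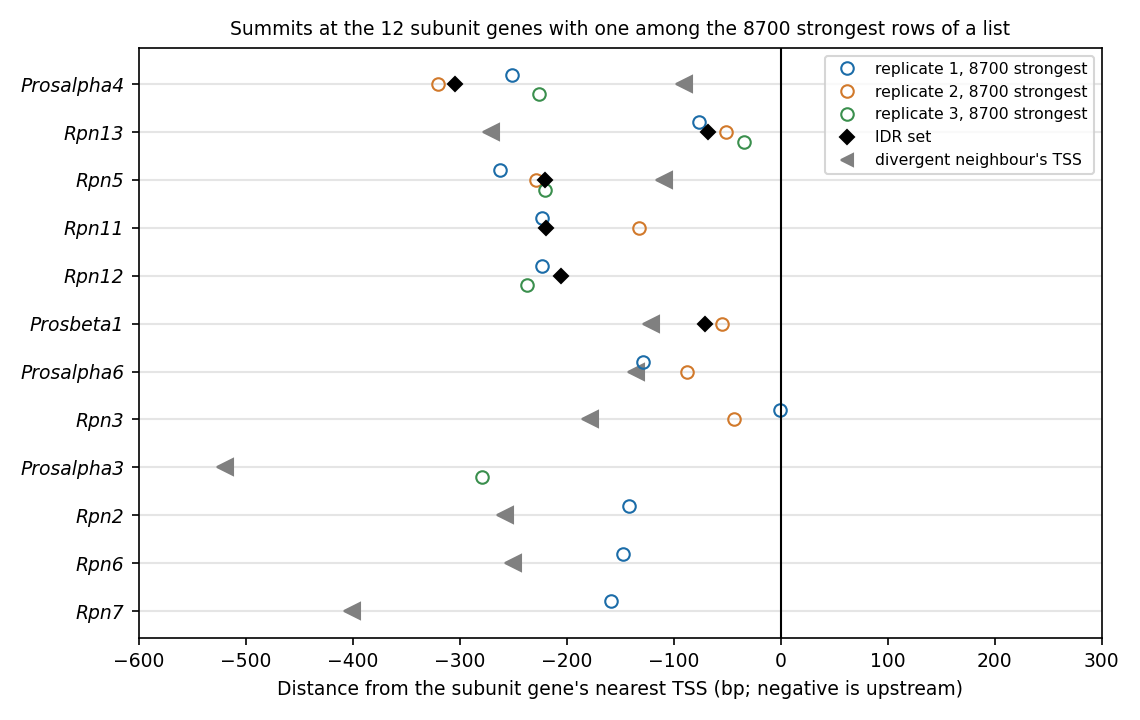
Position of OdsH-GFP summits relative to the nearest TSS of each of the 12 subunit genes that had a summit in the IDR set or among the 8700 strongest rows of a replicate list (x axis, bp, negative is upstream). Diamonds are IDR summits, circles are replicate summits, and triangles are the TSS of a divergently transcribed neighbour. All 6 IDR summits lie 68 to 304 bp upstream of the subunit gene, and those of *Prosalpha4* and *Rpn5* lie beyond the neighbour's TSS.

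As a group the 6 peaks were weaker and less replicated than promoter peaks at other genes. Their median signal value was 126 (range 103 to 517), against 215 over the 3203 other genes with a summit, and their median rank was 5560 against 2814. All 3 replicates supported 3 of the 6 peaks, compared with 76.8% for other genes with a summit. Counted over all rows of the lists, 4 of the 6 (66.7%) had a row in every replicate, compared with 92.4%. The median distance from summit to TSS was 212 bp against 225 bp. All 6 summits were upstream of the TSS, as were 81.8% of the summits at other genes. With 6 peaks these are descriptions, and none of the differences was tested.

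A subunit gene was the gene nearest to the summit in 3 of the 6 cases, *Rpn11*, *Rpn12* and *Rpn13*. Among other genes with a summit this held for 75.1%. When each summit was given to the nearest protein-coding gene only, the count fell to 3 of 48 (6.25%), beside 18.0% of all protein-coding genes. When only IDR peaks supported by all 3 replicates were used, the genes were *Rpn5*, *Rpn13* and *Prosalpha4*, again 3 of 48 (6.25%), beside 17.7% of all protein-coding genes. *Rpn13* alone met both conditions.

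The subunit classes did not share the peaks evenly. The lid held 3 of its 8 ubiquitous genes (37.5%), the non-ATPase part of the base 1 of 4, the alpha rings 1 of 7 and the beta rings 1 of 7. The 6 ATPase genes *Rpt1* to *Rpt6* held none, in the IDR set or among the 8700 strongest rows of any replicate. Over all protein-coding genes the share was 23.0% in the IDR set and 32.4% in at least 1 replicate's 8700 strongest rows. In classes this small, counts such as these lie within a few genes of that share. The only row at an ATPase gene in any list was 1 at *Rpt2* in replicate 1 (rank 9471, signal value 22.1, summit 46 bp downstream of a TSS). By contrast 7 of the 8 lid genes (87.5%) had a row in a full replicate list, beside 61.2% of all protein-coding genes. These classes hold 4 to 8 genes each, and the differences between them were not tested.

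The replicate lists gave the spread of the shares between replicates. Within each replicate's 8700 strongest rows, 10, 7 and 5 of the 32 ubiquitous genes had a summit in replicates 1, 2 and 3, or 31.2%, 21.9% and 15.6% (mean 22.9% ± 7.86, SD, n = 3). The shares over all protein-coding genes were 26.7%, 25.4% and 24.6%, and the mean over genes outside the family was 25.6% ± 1.05 (SD, n = 3). Replicate 1 was thus above the background and replicates 2 and 3 below it, and the gap between the means was smaller than the spread of the ubiquitous share. That SD describes variation between replicates only. It does not measure the uncertainty that comes from the small number of genes, and no difference was tested with it. The paralogs were at 0 in each replicate, which brought the share of all 48 genes to 15.3% ± 5.24 (SD, n = 3), below the background share in every replicate.

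**Figure D2:**
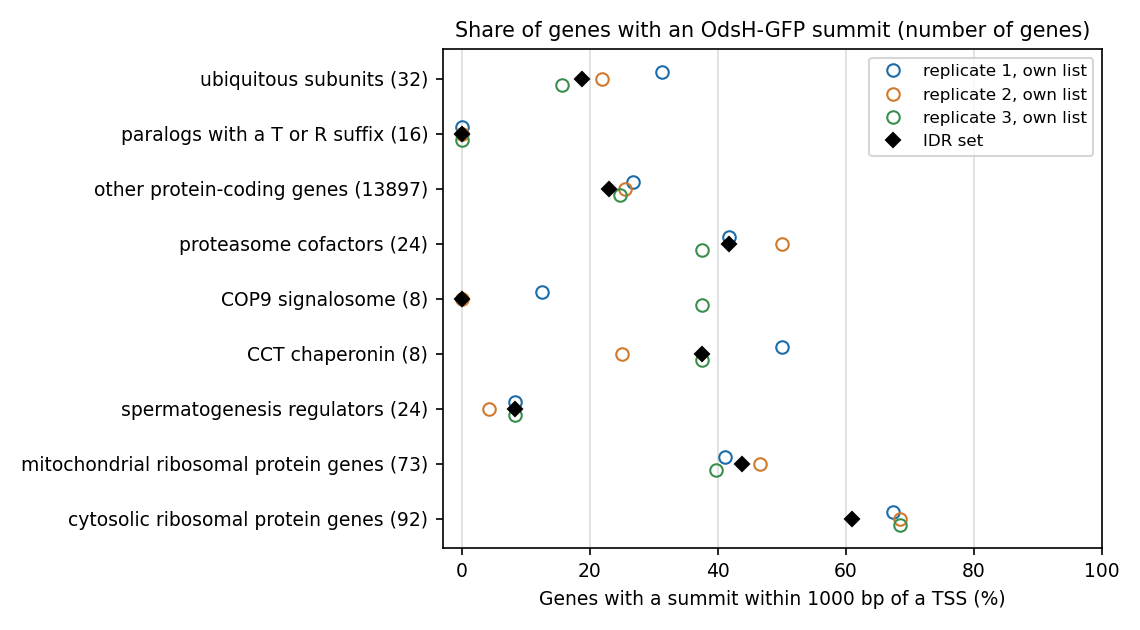
Share of genes with an OdsH-GFP summit within 1000 bp of a TSS (x axis, percent) for the proteasome genes and the lists described beside them, with the number of genes in parentheses. Circles give each replicate's 8700 strongest rows and diamonds the IDR set. The ubiquitous subunits span 15.6% to 31.2% around the other protein-coding genes, and the paralogs are at 0 throughout.

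Replicate 3 differed from the other replicates at these genes. Over all 30000 rows of each list, 18 ubiquitous genes had a summit in replicate 1 (56.2%), 13 in replicate 2 (40.6%) and 5 in replicate 3 (15.6%), whereas genes outside the family gave 48.5%, 45.4% and 42.0%. Every one of the 13 genes found in replicate 2 was also found in replicate 1. In 9 ubiquitous genes (28.1%) the rows came from replicates 1 and 2 without replicate 3, a pattern seen in 8.48% of genes outside the family. These patterns were counted per gene and did not require the rows to overlap. Rows in all 3 lists were found for 4 ubiquitous genes, *Prosalpha4*, *Rpn5*, *Rpn12* and *Rpn13* (12.5%), against 30.3% outside the family. Without replicate 3, the mean share of ubiquitous genes with a summit among the 8700 strongest rows was 26.6% in place of 22.9%. The difference between replicates was not tested, and the depth of each library is unknown, since only peak lists were used.

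The 8700 strongest rows of the replicates added 6 ubiquitous genes that had no summit in the IDR set. These were 23.1% of the 26 ubiquitous genes without an IDR summit, while 12.3% of the 10694 other genes without one were added in the same way. With these 6 genes, 12 of the 32 (37.5%) had a summit in at least 1 replicate list, beside 32.4% of all protein-coding genes, and 3 (9.38%) in all 3 replicate lists, beside 18.8%. The strongest of the added genes was *Rpn3*, with a signal value of 102 at rank 1210 in replicate 1 and 144 at rank 1484 in replicate 2. Its summits were 1 and 44 bp upstream of the TSS. The replicate 2 summit lay inside the second copy of the 78 bp repeat printed above and the replicate 1 summit between that copy and the TSS. Replicate 3 and the pooled list had no row there. Of the 1284 regions found among the 1500 strongest rows of both replicate 1 and replicate 2, 18 (1.40%) had no row in the pooled list. *Rpn3* was 1 of them, and the limit of 1500 lies just past its rank of 1484 in replicate 2. Among the 8700 strongest rows of replicates 1, 2 and 3, 7.02%, 5.15% and 4.31% had no overlapping pooled row. Whether the repeat bears on the missing pooled row at *Rpn3* was not tested.

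The other added genes rested mostly on 1 replicate. *Prosalpha6*, an alpha ring gene, had a signal value of 39.9 (rank 4860) in replicate 1 and 43.7 (rank 7371) in replicate 2, with summits 129 and 88 bp upstream, between its TSS and the divergent one of *Npc1a* 135 bp away. *Rpn6*, a lid clamp subunit gene, was at 53.2 (rank 3314) and *Rpn7*, another lid gene, at 26.7 (rank 7766), both in replicate 1 only. *Rpn2*, the large scaffold of the base, was at 34.4 (rank 5853) in replicate 1, with a weaker row of 19.0 (rank 16384) in replicate 2. *Prosalpha3*, an alpha ring gene, had 27.5 (rank 7612) in replicate 3 and no row elsewhere, the only ubiquitous gene with that pattern. None of these genes had a row in the pooled list.

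**Figure D3:**
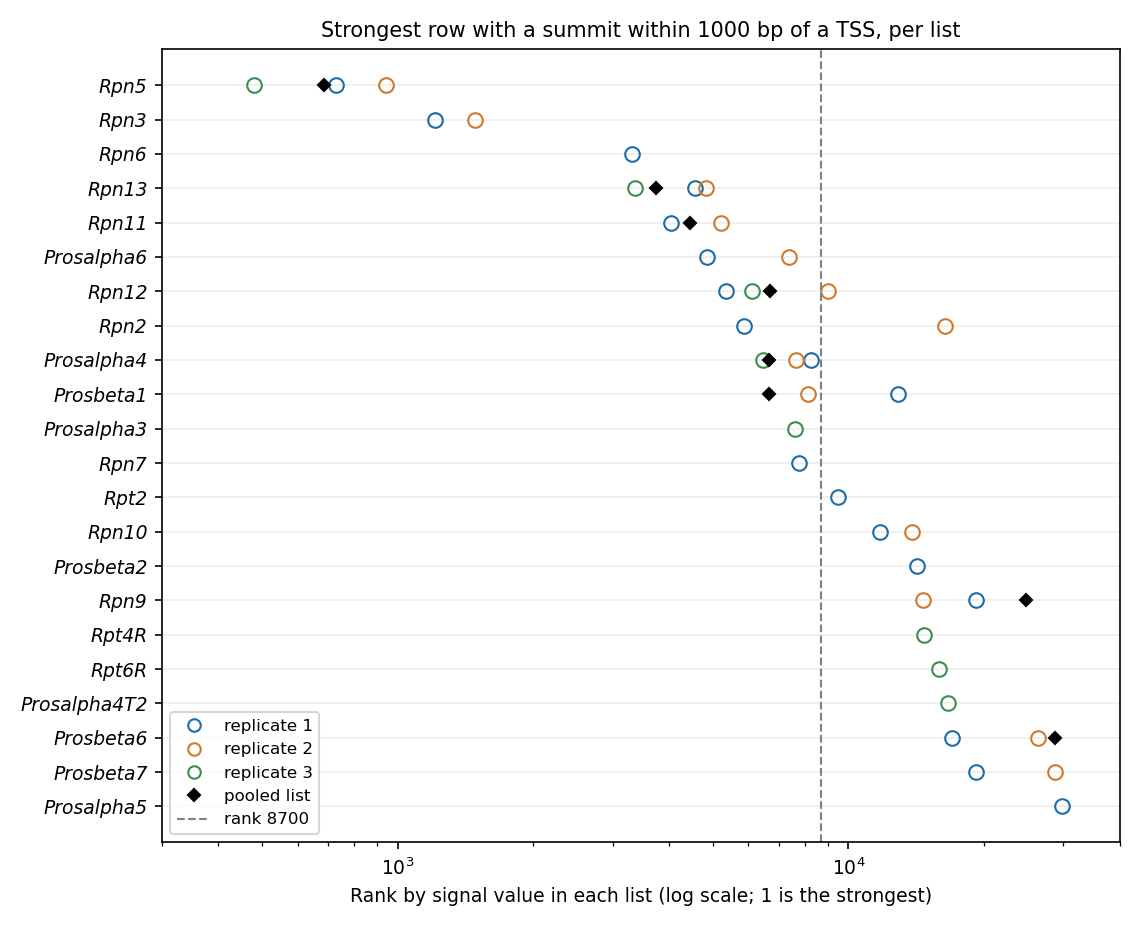
Rank by signal value (x axis, log scale, 1 is the strongest) of the strongest row within 1000 bp of a TSS for the 22 subunit genes with a row in any list. Circles are the replicates, diamonds the pooled list, and the dashed line marks rank 8700. *Rpn3* has ranks 1210 and 1484 and no diamond, and only 5 ubiquitous genes have a replicate 3 circle.

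Rows past rank 8700 were the only ones at 7 further ubiquitous genes. *Rpn9* of the lid had signal values of 11.4 (rank 19205) and 21.4 (rank 14669) in replicates 1 and 2 and a pooled row of 22.2 (rank 24791), with summits 839 to 841 bp upstream. *Prosbeta6*, a beta ring gene, had 12.8 (rank 16954) and 11.2 (rank 26350) in the same replicates and 18.7 (rank 28680) in the pooled list. *Rpn10*, the other main ubiquitin receptor, had 18.0 (rank 11739) and 22.7 (rank 13853), and the beta ring gene *Prosbeta7* had 11.4 (rank 19192) and 10.2 (rank 28726), each in replicates 1 and 2. The rows at *Prosbeta7* did not overlap, with summits 81 bp upstream of a TSS in replicate 1 and 406 bp in replicate 2. *Prosbeta2*, the subunit with trypsin-like activity, *Prosalpha5* of the alpha ring and *Rpt2* each had 1 row, in replicate 1. In all, 19 of the 32 ubiquitous genes (59.4%) had a row in a full replicate list, beside 61.2% of all protein-coding genes. By a row in at least 1 full replicate list the ubiquitous subunits were thus close to the background. All 48 members were below it, with 22 genes (45.8%). Other counts over full lists differed. Replicate 1 alone put the ubiquitous subunits above genes outside the family (56.2% against 48.5%), and replicates 2 and 3 put them below. They were also below with all rows of the pooled list (25.0% against 38.7%) and by rows in all 3 replicate lists (12.5% against 30.3%).

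No row of any list lay within 1000 bp of a TSS of the other 13 ubiquitous genes (40.6%, against 38.3% of genes outside the family). They include *Prosbeta5*, the subunit with chymotrypsin-like activity, *Rpn1*, the other large scaffold of the base, *Rpn8*, the partner of Rpn11 in the lid, and 5 of the 6 ATPase genes. The rest are the alpha ring genes *Prosalpha1*, *Prosalpha2* and *Prosalpha7* and the beta ring genes *Prosbeta3* and *Prosbeta4*. Of the 3 proteolytic subunits, then, *Prosbeta1* had an IDR summit, *Prosbeta2* a single weak row and *Prosbeta5* none.

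None of the 16 paralogs had an IDR summit or a row among any replicate's 8700 strongest. The core paralogs are *Prosalpha1R*, *Prosalpha3T*, *Prosalpha4T1*, *Prosalpha4T2*, *Prosalpha6T*, *Prosbeta2R1*, *Prosbeta2R2*, *Prosbeta4R1*, *Prosbeta4R2*, *Prosbeta5R1* and *Prosbeta5R2*, and the cap paralogs are *Rpt3R*, *Rpt4R*, *Rpt6R*, *Rpn12R* and *Rpn13R*. Weak rows were found at 3 of them, all in replicate 3. *Rpt4R* had a signal value of 13.3 (rank 14693, 991 bp upstream), *Rpt6R* 12.3 (rank 15870, 69 bp upstream) and *Prosalpha4T2* 11.8 (rank 16639, 967 bp upstream). The first and last of these lay just inside the window. Rows in replicate 3 only were thus found at 18.8% of the paralogs, beside 6.22% of genes outside the family. The pattern was not particular to the paralogs, since 5 of the 24 spermatogenesis genes described further on (20.8%) had it. The other 13 paralogs (81.2%) had no row in any list, against 38.3% of genes outside the family. These differences were not tested.

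The distance to the nearest IDR summit separated the paralogs further. The median was 13992 bp for the paralogs (range 3414 to 60977 bp), 5671 bp for the ubiquitous subunits and 6238 bp for genes outside the family. The closest paralogs were *Prosbeta2R2* at 3414 bp and *Prosbeta5R1* at 3625 bp. Within 5000 bp the shares were 12.5% of paralogs, 46.9% of ubiquitous subunits and 44.7% of other genes, and within 10000 bp they were 31.2%, 62.5% and 63.5%. At the edge of the window, the member just inside was *Prosalpha4* at 304 bp and those just outside were *Prosbeta6* at 1085 bp and *Rpn9* at 1706 bp.

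**Figure D4:**
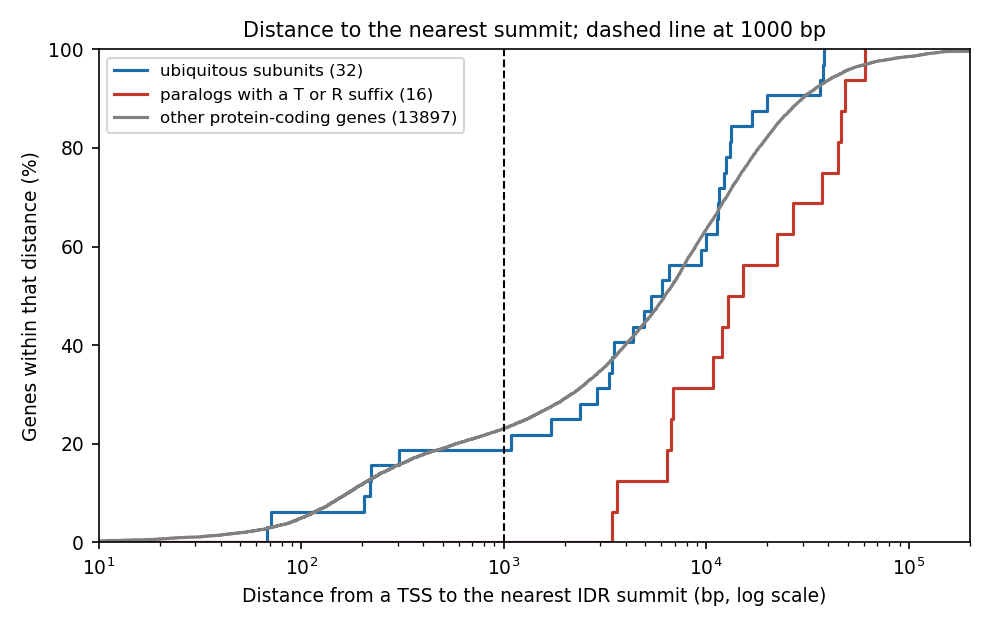
Cumulative share of genes (y axis, percent) against the distance from a TSS to the nearest IDR summit (x axis, bp, log scale) for the 32 ubiquitous subunits, the 16 paralogs and the 13897 other protein-coding genes. The ubiquitous curve follows that of other genes, and the paralog curve starts at 3414 bp.

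Gene structure differed between the classes. A divergently transcribed neighbour with its TSS within 1000 bp was present at 22 of the 32 ubiquitous genes (68.8%), 4 of the 16 paralogs (25.0%) and 36.2% of genes outside the family. Genes outside the family with such a neighbour had a summit in 33.2% of cases and those without in 17.3%. The ubiquitous subunits did not show that step, with 4 of 22 (18.2%) and 2 of 10 (20.0%). A single TSS was annotated for 22 ubiquitous genes (68.8%), 14 paralogs (87.5%) and 73.5% of genes outside the family, and genes were short, with medians of 1390, 1282 and 2173 bp. Genes outside the family with 1 TSS had a summit in 16.4% of cases and those with 2 or more in 41.6%. The ubiquitous subunits had one in 5 of 22 (22.7%) and 1 of 10, and the paralogs in none of either kind. Ubiquitous subunits with 1 TSS were thus above the matching share, and those with 2 or more were below it. Standardised to the number of TSSs of the 48 members, the share of genes outside the family was 21.3%. Standardised also to having a divergent neighbour, a choice made after the data were seen, it was 23.8%, still above the 12.5% of the 48 members. None of these differences was tested.

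The 48 genes were spread over the arms, with 8 on 2L, 13 on 2R, 7 on 3L, 14 on 3R, 6 on X and none on 4. The 6 with a summit comprised 1 on each of 2L, 3L, 3R and X and 2 on 2R, so the peaks were not from 1 arm. On these arms the share of members ran from 7.14% (3R) to 16.7% (X). That of genes outside the family ran from 19.8% (2R) to 25.6% (X), with 22.8% on 3R. The differences by arm were not tested.

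The promoter sequences, taken from 250 bp before to 50 bp after the canonical TSS and searched on both strands, held some words at different shares in the ubiquitous subunits and the paralogs. TATCGATA, the DNA replication-related element bound by DREF, was in 11 ubiquitous promoters (34.4%), 1 paralog promoter (6.25%, *Rpt3R*) and 8.89% of promoters outside the family. The 11 genes were *Prosalpha3*, *Prosalpha5*, *Prosalpha6*, *Prosbeta1*, *Prosbeta2*, *Prosbeta6*, *Rpn3*, *Rpn7*, *Rpn9*, *Rpn12* and *Rpt5*. Of these only *Prosbeta1* and *Rpn12* had an IDR summit, and of all 1247 protein-coding genes with the word 323 had one (25.9%). The word counts and the differences between classes are descriptions and were not tested.

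A pair of alpha ring genes on 2L and an ATPase gene on 3R illustrate these promoters. *Prosalpha6* (2L:10221101-10221400, plus strand) had summits in 2 replicate lists, its paralog *Prosalpha6T* (2L:13231789-13232088, plus strand) had no row in any list, and *Rpt5* (3R:23752626-23752925, plus strand) had none either. Capitals mark TATCGATA and TAATTA.
Prosalpha6: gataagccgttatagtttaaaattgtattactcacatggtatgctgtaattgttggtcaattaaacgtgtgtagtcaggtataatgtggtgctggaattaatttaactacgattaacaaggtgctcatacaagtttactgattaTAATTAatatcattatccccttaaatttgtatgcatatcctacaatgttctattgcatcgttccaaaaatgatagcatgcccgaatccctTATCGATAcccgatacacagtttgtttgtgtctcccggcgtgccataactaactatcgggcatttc
Prosalpha6T: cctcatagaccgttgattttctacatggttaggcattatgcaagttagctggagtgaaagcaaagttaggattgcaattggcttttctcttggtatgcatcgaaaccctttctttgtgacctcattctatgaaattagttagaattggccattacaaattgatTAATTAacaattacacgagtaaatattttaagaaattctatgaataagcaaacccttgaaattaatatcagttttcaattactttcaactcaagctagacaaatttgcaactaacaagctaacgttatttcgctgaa
Rpt5: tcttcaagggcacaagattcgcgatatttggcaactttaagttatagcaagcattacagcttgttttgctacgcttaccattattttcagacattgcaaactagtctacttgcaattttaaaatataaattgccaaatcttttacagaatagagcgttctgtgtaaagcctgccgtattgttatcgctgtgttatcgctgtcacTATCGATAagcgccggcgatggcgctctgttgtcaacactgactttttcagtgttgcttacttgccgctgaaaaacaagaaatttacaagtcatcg
The ubiquitous *Prosalpha6* promoter held both words and that of its paralog only TAATTA, 87 bp upstream of the TSS. In *Prosalpha6* TATCGATA started 16 bp and TAATTA 106 bp upstream, and in *Rpt5* TATCGATA started 46 bp upstream. These genes show that neither word went with a summit in every case.

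The other words were less common or uneven. GGTCACAC, a core promoter word, was in 6 ubiquitous promoters (18.8%), no paralog promoter and 7.52% of promoters outside the family. TAATTA was in 3 ubiquitous promoters (9.38%), 2 paralog promoters (12.5%) and 20.1% of promoters outside the family, so it was rarer in proteasome promoters than elsewhere. TGACNNNGC, the core of the antioxidant response element bound by the Cnc family, was in 5 ubiquitous promoters (15.6%), 1 paralog promoter (6.25%) and 8.47% outside the family. It overlapped GGTCACAC in 2 of the members' promoters. GGTGGCAAA, through which Rpn4 drives proteasome genes in yeast, was in none of the 48 and in 0.497% of promoters outside the family. In the 6 summit windows of 101 bp, TAATTA and TATCGATA each occurred in 2. Among the 3167 IDR summits within 1000 bp of a protein-coding TSS, 11.0% of windows held TAATTA and 1.61% held TATCGATA. The absence of a word says only that its letters are not in the window.

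The median GC content of the promoters was 33.5% for the ubiquitous subunits, 32.5% for the paralogs and 38.0% outside the family. At the summits themselves the median was 28.2% for the 6 subunit genes and 30.7% for other genes with a summit. The promoters of the 6 ubiquitous genes with a summit had a median of 32.0% and those of the 26 without one 34.3%.

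A list of cofactors, mostly genes that assemble, regulate or feed the proteasome, carried summits more often than the subunit genes taken by the symbol rule. The list also holds *Sem1*, whose symbol that rule does not take in, and which had no IDR summit. Of 24 such cofactor genes 10 had an IDR summit (41.7%, beside the 23.0% of all protein-coding genes), with 43.1% ± 6.36 (SD, n = 3) in the replicates' own lists. Among the regulators, *Keap1*, which holds back the transcription factor Cnc, had the strongest peak, with a signal value of 884 at rank 200. Its replicate signal values were 227 (rank 219), 381 (rank 198) and 265 (rank 221). The summit was 854 bp upstream of *Keap1* and nearer, at 555 bp, to *kuk*, a nuclear envelope protein gene. *cnc*, which encodes the factor that induces proteasome genes under stress, had a signal value of 411 at rank 1036 and a summit 331 bp downstream of 1 of its 10 TSSs. It was strong in replicates 1 and 2 (ranks 901 and 1248) and weaker in replicate 3 (rank 8862). *maf-S*, the partner of Cnc, was at 156 (rank 4243), with *CG11110* nearer to the summit.

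Among the factors of assembly and substrate delivery, *Pomp*, the chaperone of core assembly, had a signal value of 304 at rank 1719 with a summit 268 bp upstream and support from all 3 replicates. The polyubiquitin gene *Ubi-p63E* was at 181 (rank 3537) and *Uba1*, the ubiquitin-activating enzyme gene, at 103 (rank 6643). *Npl4* and *Ufd1*, which bring substrates to the ATPase p97, were at 137 (rank 4895) and 89.4 (rank 7653), the latter with *NaPi-III* as the nearer gene. *PI31*, a proteasome regulator, was at 101 (rank 6785) and *Pngl*, which removes N-linked sugars from misfolded proteins, at 95.9 (rank 7151). Rows in replicates 1 and 2 without replicate 3 were found for 6 of the 24 (25.0%), beside 28.1% of the ubiquitous subunits. One was *ntc*, an F-box protein gene of sperm differentiation, at ranks 3356 and 3015. The difference between cofactor and subunit genes was not tested. Nor were the lists matched for the number of TSSs, which reached 10 at *cnc* and at most 3 among the subunit genes.

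Other protein complexes gave a scale for these counts, beside the 23.0% of all protein-coding genes with an IDR summit. The COP9 signalosome, whose architecture resembles the lid, had 0 of 8 genes with an IDR summit and 1, 0 and 3 in the replicates' own lists. The CCT chaperonin had 3 of 8 (*CCT5*, *CCT7* and *CCT8*), mitochondrial ribosomal protein genes 32 of 73 (43.8%) and cytosolic ribosomal protein genes 56 of 92 (60.9%). Regulators and products of spermatogenesis, a list set beside the paralogs for their expression in the male germ line, had 2 of 24 (8.33%, *can* and *twe*). By the share with an IDR summit, the paralogs, the spermatogenesis genes and the COP9 genes were thus all below the background. A low share was therefore not limited to the lists of male germ line genes. The ubiquitous subunits were far below the ribosomal protein genes. Over the full replicate lists, however, 62.5% of the spermatogenesis genes and 75.0% of the COP9 genes had a row. The paralogs had 18.8% and all protein-coding genes 61.2%. The lists of this paragraph differ in size and promoter structure, and no difference between them was tested.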

How the data were processed

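OdsH-GFP ChIP-seq peak lists on build dm6 were used: 1 per replicate, 1 for the pooled replicates and the optimal IDR set. File lists deposited with the libraries name the same single control alignment for every replicate. Neither aligner nor peak caller is named in the sources used here. Each row's signal value was deposited by the authors and served only to rank rows within a list. The deposited −log10 q-value was at its highest value in 90.0% of IDR peaks and ranked nothing. Summit positions came from the deposited summit offset. All 8700 IDR peaks were the strongest 8700 of the 30000 rows of the pooled list, so these lists are not separate evidence; 71.0% were supported by all 3 replicates. Only peak lists were analysed, so sequencing depth is unknown and its effect on any share could not be given.

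Coordinates are 1-based. Genes and TSSs came from Ensembl release 115 and sequences from RefSeq, both on Release 6 of the genome. Genes were called with a summit at most 1000 bp from a TSS. Replicate support meant an overlap of 1 bp or more with a row among that replicate's strongest 8700. Shares over the replicates' own lists are given as mean ± SD over 3 replicates. The series has 1 group, so conditions could not be compared, genes are not replicates, and no p-value is given.

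The members and lists were chosen with earlier results of these data known. Of the symbols in the cofactor list 24 of 27 matched the annotation, of the COP9 list 8 of 9, of the CCT list 8 of 8 and of the spermatogenesis list 24 of 25. The rule for named genes took every subunit gene with an IDR summit, every paralog, ubiquitous subunits without an IDR summit, cofactor genes with a summit, and a neighbouring gene where its TSS was nearer. The neighbour of *Prosalpha6*, *ntc* and the genes of other lists were named after their values were seen. Alternatives covered the window, the TSS, peak strength, replicate support, the list, attribution to the nearest gene, and each replicate left out. For the IDR set, leaving a replicate out meant keeping the peaks supported by both of the others. Counting code was tested on simulated peaks. Python 3.11.15, NumPy 2.4.6 and matplotlib 3.10.9 were used.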

Additional observations from a re-analysis of the deposited data

How the results depend on the processing

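The share of all 48 members with a summit, 12.5%, became 4.17% with the stronger 4350 IDR peaks. It was 6.25% with peaks supported by all 3 replicates, 4.17% with reciprocal overlap of 50% and 6.25% with the nearest gene only. Each replicate was also set aside in turn, keeping the IDR peaks supported by both others, which gave 6.25% to 8.33%. This was a filter on replicate support, since the IDR set is drawn from the pooled replicates. For the ubiquitous subunits, 18.8% became 6.25%, 9.38%, 6.25% and 9.38% in the same order, and 9.38% to 12.5% with this filter. For genes outside the family, 23.0% became 15.3%, 17.8%, 13.3% and 18.1% in that order and 18.7% to 19.5% with this filter. It was also 19.0%, 14.1% and 29.2% with windows of 500, 250 and 2000 bp (18.8%, 15.6% and 25.0% for the ubiquitous subunits, so that at 250 bp they were above the other genes), 24.2% with any base of the peak, 20.7% with the canonical TSS, 38.7% with all rows of the pooled list (25.0% for the ubiquitous subunits) and 21.3% standardised to the number of TSSs. The paralogs stayed at 0 under every alternative based on the IDR or pooled list. With all rows of the replicates' own lists the mean shares rose to 27.1% of all members, 37.5% of ubiquitous subunits and 6.25% of paralogs. With a replicate left out, the means over the strongest rows ranged from 12.5% to 17.7% for all members, from 18.8% to 26.6% for ubiquitous subunits, and were 0 for paralogs. The median signal value of 126 became 149 with the nearest gene only and 138 to 174 with a replicate left out, the latter chosen after seeing the data. The cause of these shifts was not tested, except that a stricter peak set holds fewer peaks by construction.

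No paired analysis was possible because the series has 1 group. With 6 subunit genes called, 1 gene is about 2% of the members. Unknown depth, 1 shared control alignment and whole animals limit every share given here.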
